A study of Mus musculus with 18 samples.

Results

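Jmjd1c and 9 other genes for enzymes that remove or add methyl groups on lysine 9 of histone H3 (H3K9) were followed through expression, accessibility and H3K9me2 in mouse liver. The members were listed by gene name, with earlier results of these data known: Jmjd1c, Kdm3a, Kdm3b, Kdm4a, Kdm4b, Kdm4c, Ehmt1, Ehmt2, Setdb1 and Suv39h1. They are 10 of 15572 genes in the RNA-seq table and hold 24 of its 24994 RefSeq transcripts. All 10 genes and all 24 transcripts passed the filter on low counts.

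Livers came from c57bl/6j mice, either wild type (WT) or with a liver-specific knockout of Jmjd1c (JMJD1C-LKO), made by crossing mice with a floxed Jmjd1c allele to mice that express Cre from the albumin promoter. RNA-seq compared refed WT with refed JMJD1C-LKO liver, ATAC-seq covered fasted WT, refed WT and refed JMJD1C-LKO liver, and H3K9me2 ChIP-seq with input covered fasted and refed WT liver, with 2 samples in each of 9 groups. The mice had been on chow for 6 to 8 weeks and were fasted overnight, and the refed animals were then given a high carbohydrate diet for 6 h according to the labels, whereas the methods give 8 to 16 h. The methods state an age of 12 weeks unless specified otherwise, and the reporting summary states use from 6 weeks of age. Each RNA-seq library was made from pooled RNA, and the WT mice were littermates of the knockouts. The albumin promoter drives Cre in hepatocytes, so the other cells of the liver keep the floxed exons. RNA of fasted liver and H3K9me2 of JMJD1C-LKO liver were not analysed here.

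Methylation of H3K9 is mostly linked to chromatin in which transcription is low, and its level is set by opposing enzymes. EHMT1 (GLP) and EHMT2 (G9a) work as a pair that places mono- and dimethylation, SETDB1 and SUV39H1 place trimethylation, and proteins of the HP1 family bind the methylated tail. KDM3A and KDM3B remove mono- and dimethylation, KDM4A, KDM4B and KDM4C remove di- and trimethylation, and JMJD1C belongs to the KDM3 family. The demethylases are JmjC domain enzymes that need iron, oxygen and 2-oxoglutarate, whereas the methyltransferases take their methyl group from S-adenosylmethionine, so both sides draw on liver metabolism.

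The RNA-seq libraries held 51265128 to 54400509 estimated counts, with TMM normalization factors of 0.961 to 1.02. Marker genes of hepatocytes summed to 123000 and 121000 CPM (counts scaled to the TMM-normalized library size) in the WT libraries and to 124000 and 110000 CPM in the libraries labelled JMJD1C-LKO. Markers of other cells moved with the genotype label. Those of Kupffer cells and macrophages summed to 245 and 251 CPM in WT against 482 and 695 CPM, with 8 of 8 genes higher, those of liver endothelial cells to 113 and 114 against 153 and 205 CPM, with 6 of 8 higher, and those of dividing cells to 6.54 and 6.21 against 13.1 and 17.4 CPM, with 5 of 6 higher. Of the remaining lists, 2 of 6 T cell markers, 1 of 8 stellate cell, 1 of 4 neutrophil, 1 of 5 erythroid, 1 of 8 hepatocyte and the only pancreas marker tested were higher, none of 6 cholangiocyte or 5 B cell markers was called, and no marker of any list was lower. No marker in the table was at 0. Whether this difference in cell content had a part in the values below was not tested, and in bulk liver fewer cells of a type and less RNA per cell cannot be told apart.

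Jmjd1c was only slightly lower in the libraries labelled as its knockout. The gene lies on the plus strand of chromosome 10 from 67127088 to 67256326 (GRCm38.p6, the mm10 build). Its level was 22 and 22.8 CPM in the 2 WT libraries and 20 and 20.5 CPM in the 2 libraries labelled JMJD1C-LKO. Both libraries labelled JMJD1C-LKO were below both WT libraries, and the groups did not overlap. The log2 fold change was -0.14 (SE 0.08, edgeR quasi-likelihood F test, adjusted p = 0.23), or -9.48%, and the 95% interval ran from -20.6% to 3.16%, so a fall of more than 20.6% lay outside it. Leaving out each library in turn kept the log2 value between -0.17 and -0.12. The counts run over whole transcripts, so exons outside the floxed stretch contribute to them, and the deposited table gives no count for the floxed exons alone. The difference in the target gene thus did not pass the test threshold in these libraries, and every direction given below is between libraries as labelled.

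The 2 RefSeq transcripts of Jmjd1c in the table start at different places and differ mainly at their 5′ ends. In GRCm38.p6, NM_207221 begins at 67127088 (67127258 in the deposited counts) and has 335 and 165 exonic bases of its own. They lie in its exons at 67127088 to 67127422 and 67157907 to 67158071. NM_001242396 begins at 67185750 and has 562 exonic bases of its own in its first exon (67185750 to 67186311) and 3 more at 67226917 to 67226919. The remaining 8052 bases are common to both, or 94.2% of NM_207221 and 93.4% of NM_001242396, so the division of reads between them rests on a small part of each. The 250 bases before each start lie within annotated exons of other Jmjd1c transcript models. They are shown because the starts differ in sequence type, with every CG in capitals.
Jmjd1c, first start, chr10:67126838-67127087, plus strand: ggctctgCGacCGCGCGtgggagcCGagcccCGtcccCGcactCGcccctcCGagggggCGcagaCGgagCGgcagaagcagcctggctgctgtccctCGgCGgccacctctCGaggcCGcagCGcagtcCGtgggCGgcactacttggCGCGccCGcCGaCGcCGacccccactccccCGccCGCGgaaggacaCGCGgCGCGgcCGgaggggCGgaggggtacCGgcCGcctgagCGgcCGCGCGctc
Jmjd1c, second start, chr10:67185500-67185749, plus strand: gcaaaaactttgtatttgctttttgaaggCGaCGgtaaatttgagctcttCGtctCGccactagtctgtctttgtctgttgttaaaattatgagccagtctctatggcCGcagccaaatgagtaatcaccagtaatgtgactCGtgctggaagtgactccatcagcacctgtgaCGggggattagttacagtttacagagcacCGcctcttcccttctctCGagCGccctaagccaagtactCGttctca
The first stretch is rich in CG, with 40 in 250 bases and 79.6% G and C, whereas the second holds 11 with 47.2% G and C. In the 300 bases from 250 before to 50 after a start, the first start had 47 CG, at the 98.8th percentile of 32851 RefSeq promoters, and the second had 13, at the 63.7th percentile.

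Estimated counts of NM_207221, from the first start, were 860 and 709 in WT and 819 and 861 in the libraries labelled JMJD1C-LKO. These ranges overlapped (log2 fold change 0.10, SE 0.13, edgeR adjusted p = 0.71). For NM_001242396 the estimated counts were 280 and 479 in WT and 171 and 268 in the libraries labelled JMJD1C-LKO. The groups did not overlap, but the WT libraries differed from each other by more than the gap between groups, and the log2 fold change of -0.81 (SE 0.33) had an edgeR adjusted p of 0.21. Its share of all Jmjd1c counts was 24.6% and 40.3% in WT against 17.3% and 23.7%. The bar plot shows lower estimated counts of NM_001242396 in the libraries labelled JMJD1C-LKO, most clearly against the second WT library, where NM_207221 was lowest. As most bases are shared, the plot cannot tell which transcript fell.

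**Figure D1:**
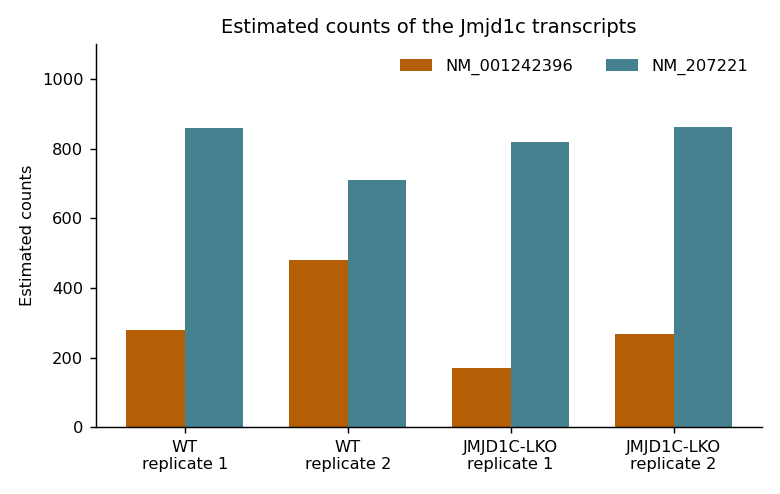
Estimated counts (y axis, linear from 0) of both Jmjd1c transcripts in each of the 4 refed liver libraries (x axis). NM_207221 lies between 709 and 861 in all libraries, and NM_001242396 is 280 and 479 in WT and 171 and 268 in the libraries labelled JMJD1C-LKO.

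None of the 10 genes passed an adjusted p of 0.05 between refed libraries labelled JMJD1C-LKO and refed WT libraries. Over all 14151 genes tested, 14.6% were called higher, 13.4% lower and 28% in either direction. At an unadjusted p under 0.05 there were 2 of the 10 genes, Setdb1 and Ehmt2, beside 5650 of all genes tested, and DESeq2's Wald test also called 0 of the 10. The median log2 fold change of the 10 genes was -0.14 and that of all genes 0.01. Both libraries labelled JMJD1C-LKO were below both WT libraries for 6 of the 10 genes (33.8% of all genes tested) and above both for 2 of the 10 (33.7% of all genes tested). Only Kdm4b and Ehmt1 had overlapping groups.

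**Figure D2:**
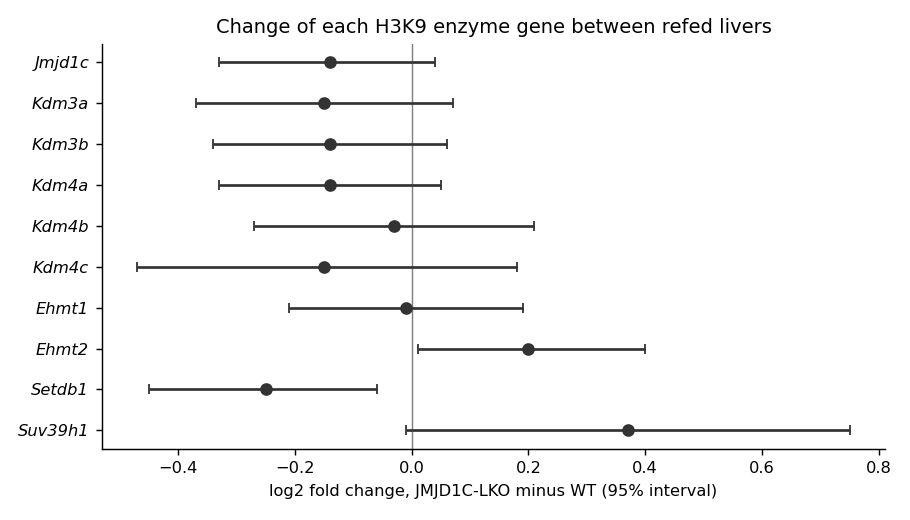
Log2 fold change of each gene (x axis, libraries labelled JMJD1C-LKO minus WT, 2 libraries per group) with its 95% interval from the edgeR fit. Jmjd1c, Kdm3a, Kdm3b, Kdm4a and Kdm4c sit between -0.15 and -0.14 with intervals that include 0, Setdb1 lies lowest at -0.25 and Suv39h1 highest at 0.37.

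Kdm3a and Kdm3b, the closest relatives of Jmjd1c, were at 15.3 and 16.3 CPM and at 29.5 and 27.6 CPM in WT. In the libraries labelled JMJD1C-LKO, Kdm3a was at 13.8 and 14.8 CPM (log2 fold change -0.15, SE 0.10, edgeR adjusted p = 0.30) and Kdm3b at 24.7 and 27.1 CPM (-0.14, SE 0.09, adjusted p = 0.27). All 3 family members were thus lower by a like amount without passing the test. Per kb of transcript, Jmjd1c made up 26% and 26.8% of the summed level of the KDM3 family in WT and 27% and 25.8% in the libraries labelled JMJD1C-LKO, Kdm3a 32% to 34.1% and Kdm3b 39.1% to 42% over all 4 libraries. The make-up of the family overlapped between groups, and Jmjd1c was its lowest member in every library.

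Among the KDM4 demethylases, Kdm4a was at 25.5 and 26 CPM in WT and at 22.5 and 24.3 CPM in the libraries labelled JMJD1C-LKO (log2 fold change -0.14, SE 0.09, edgeR adjusted p = 0.26). Kdm4b overlapped between groups, at 13.6 and 13.2 CPM against 13.9 and 12.4 CPM, with a log2 fold change of -0.03 (SE 0.11, adjusted p = 0.86). Kdm4c was at 7.25 and 7.32 CPM in WT and at 7.16 and 6.02 CPM in the other group (-0.15, SE 0.14, adjusted p = 0.49). The lower Kdm4c mean came from the second library labelled JMJD1C-LKO, since the first lay close to WT. Kdm4a made up 53.7% to 59.1% of the summed level per kb of these 3 genes over the 4 libraries.

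None of the 4 methyltransferases passed the test, and their fold changes had both signs. Setdb1, which is brought to chromatin by TRIM28 and silences retroelements, was at 32.7 and 31.1 CPM in WT and at 25.6 and 27.9 CPM in the libraries labelled JMJD1C-LKO. It was the lowest of the 10 by fold change (-0.25, SE 0.09) and missed the threshold with an edgeR adjusted p of 0.053. Leaving out each library in turn gave log2 fold changes of -0.32 to -0.20 for Setdb1. Ehmt2 was at 64.6 and 62.6 CPM against 68.2 and 78.2 CPM (log2 fold change 0.20, SE 0.09, adjusted p = 0.11), and its partner Ehmt1 at 29.9 and 27.6 against 27.3 and 29.8 CPM (-0.01, SE 0.09, adjusted p = 0.94). Suv39h1, the enzyme of constitutive heterochromatin, was at 4.98 and 4.35 CPM against 5.40 and 6.64 CPM (0.37, SE 0.17, adjusted p = 0.13). Both genes with a higher mean, Ehmt2 and Suv39h1, were highest in the second library labelled JMJD1C-LKO. The summed markers of macrophages, endothelial cells, stellate cells, T cells, B cells, neutrophils and dividing cells were also highest in that library. Those of hepatocytes were lowest in it, and those of cholangiocytes, erythroid cells and pancreas were highest in other libraries. A link between these genes and cell content was not tested. Without the first library labelled JMJD1C-LKO, the log2 fold change was 0.29 for Ehmt2 and 0.50 for Suv39h1. Without the second it was 0.10 and 0.21. In both comparisons the group labelled JMJD1C-LKO is 1 library assumed to vary like the WT pair.

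Of the 24 transcripts of these genes, 0 were called in the fit over transcripts, in which 2.12% of 22296 transcripts were called higher, 1.38% lower and 3.5% either way. At an unadjusted p under 0.05 there was 1, Ehmt2 NM_001286575, beside 5590 of all transcripts tested, and DESeq2's Wald test called 0 of the 24. Its estimated counts were 1526 and 1474 in WT and 1684 and 2435 in the libraries labelled JMJD1C-LKO (log2 fold change 0.44, SE 0.14, edgeR adjusted p = 0.14), and its share of Ehmt2 counts was 45.5% and 45.1% against 50% and 56.5%. The other large Ehmt2 transcript, NM_147151, held 38.1% and 41% against 34.9% and 30.2%. The higher Ehmt2 total in the second library labelled JMJD1C-LKO was thus mostly NM_001286575. Every exonic base of the 4 Ehmt2 transcripts is also present in another transcript of the gene. Non-overlapping groups were found for 10 transcripts lower (28.7% of all tested) and 4 higher (28.7% of all tested) in the libraries labelled JMJD1C-LKO. On counts simulated with the common dispersion of each fit, the fit over transcripts recovered 26.5% of 2-fold changes and the fit over genes 93.1%. A transcript that was not called may thus still have changed.

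The remaining transcripts behaved like their genes or were split in a way that differed between libraries. Kdm3b and Kdm4b have 1 transcript each in the table, and NM_001161823 held 94.9% to 97.3% of Kdm4a counts. Kdm3a was divided evenly, with NM_001038695 at 49.5% to 53.8% in the 4 libraries. The Ehmt1 transcripts share all of their exonic bases with each other, and NM_001109687 ranged from 12.4% to 37.2% of the gene and differed more within each group than between the group means. Kdm4c NM_144787 was at 82.6 and 143 estimated counts in WT and at 56.7 and 74.2 in the libraries labelled JMJD1C-LKO (log2 fold change -0.79, SE 0.38, edgeR adjusted p = 0.27). Its WT libraries stood further apart than the groups. The 3 Setdb1 transcripts had log2 fold changes of -0.42, -0.27 and -0.08, with adjusted p from 0.22 to 0.81. For Suv39h1 the 2 transcripts held 57.4% and 42.6% of the counts in every library, a constant split, so they gave the same fold change of 0.37 and are not separate measurements.

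The 10 genes spread over a far wider range of levels than any of them moved between groups. Levels between genes were compared as CPM per kb of transcript. In WT, Ehmt2 was at 16.4 ± 0.342 (SD, n = 2), the 78.4th percentile of the genes tested, followed by Setdb1 at 6.88 ± 0.246, Ehmt1 at 5.74 ± 0.308, Kdm4a at 5.66 ± 0.0365, Kdm3b at 4.02 ± 0.197 and Kdm3a at 3.27 ± 0.149. Jmjd1c came seventh, at 2.61 ± 0.0625 and the 43.4th percentile, ahead of Kdm4b at 2.43 ± 0.0525, Kdm4c at 1.75 ± 0.00788 and Suv39h1 at 1.49 ± 0.141. The values of neighbouring genes in this order did not overlap between the WT libraries, except for Ehmt1 (5.52 and 5.96) and Kdm4a (5.64 and 5.69). Of the methyltransferases, Ehmt2, Setdb1 and Ehmt1 were thus among the 4 highest and Suv39h1 was last, and Jmjd1c was among the 4 lowest. In the libraries labelled JMJD1C-LKO, Ehmt2 was at 18.9 ± 1.81, Jmjd1c at 2.37 ± 0.0362 and Suv39h1 at 1.92 ± 0.279 (SD, n = 2).

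**Figure D3:**
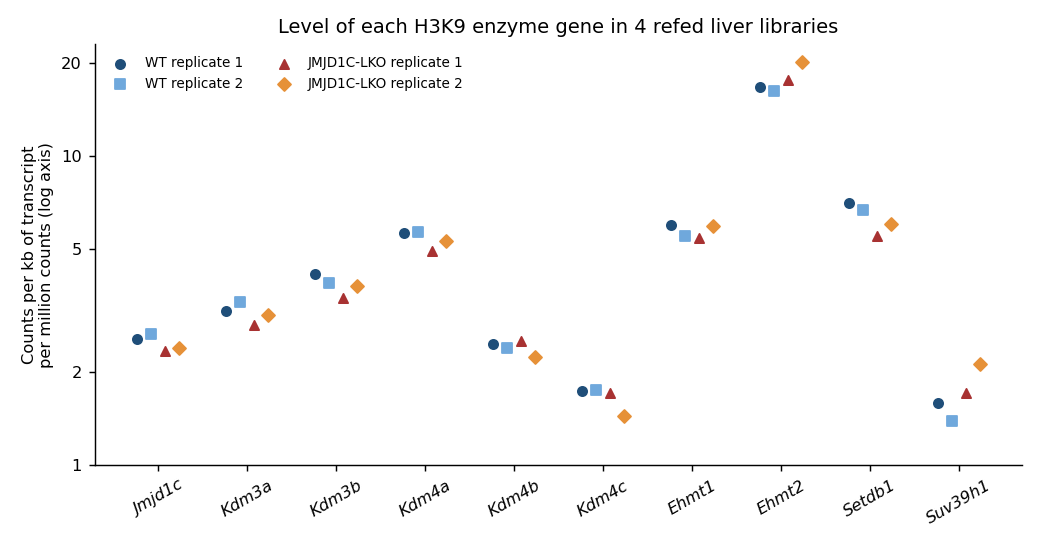
Level of each gene in CPM per kb of transcript (y axis, log scale) in 2 WT and 2 libraries labelled JMJD1C-LKO, 1 point per library. Ehmt2 stands highest at 16.2 to 20.1, Kdm4c and Suv39h1 lowest at 1.39 to 2.12, and the points of a gene lie close together against the distance between genes.

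The genes whose profile over the 4 libraries lay nearest to Jmjd1c, by Euclidean distance between centred log2 CPM among 11934 genes with a mean of at least 1 CPM, were Hhip (0.0116), Trabd (0.0126), Abca3 (0.0146), Wac (0.0153) and Etnk1 (0.0180). All 5 shared its small step, with log2 fold changes of -0.17 to -0.14 and edgeR adjusted p from 0.18 to 0.53. With 4 libraries this ranking is a description only.

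The genes that work beside the 10 enzymes included members that passed the test, as did 28% of all genes tested. Of 10 other H3K9 demethylases and methyltransferases tested, 1 rose, 1 fell and 8 were not called (median log2 fold change -0.03). Phf8, a demethylase of H3K9me1 and H3K9me2, fell from 13.9 and 14.6 CPM in WT to 11.2 and 9.92 CPM in the libraries labelled JMJD1C-LKO (-0.43, SE 0.11, edgeR adjusted p = 0.017). Prdm2, a PR domain gene, rose from 43.6 and 43.7 to 49.5 and 54.6 CPM (0.25, SE 0.08, adjusted p = 0.046). Among 18 other JmjC domain genes, 0 rose, 2 fell and 16 were not called (median -0.15): Kdm5c, an H3K4 demethylase, went from 75.7 and 72.8 to 57.6 and 55.2 CPM (-0.40, adjusted p = 0.0053) and Jarid2, a partner of the Polycomb complex, from 18.8 and 16.3 to 13.8 and 13 CPM (-0.39, adjusted p = 0.023).

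Of 15 readers and complex partners tested, 1 rose, 3 fell and 11 were not called (median -0.08), beside 28% of all genes called. Wiz, a zinc finger partner of the EHMT1 and EHMT2 complex, fell from 26.9 and 23.2 to 17.2 and 16.6 CPM (log2 fold change -0.57, SE 0.10, edgeR adjusted p = 0.0031). Pphln1, of the HUSH complex (-0.39, adjusted p = 0.016), and Morc2a, which works with HUSH (-0.34, adjusted p = 0.023), fell as well. The HUSH genes Fam208a (-0.08, adjusted p = 0.53) and Mphosph8 (0.05, adjusted p = 0.7) were not called, so the complex did not fall as a set. HUSH works with SETDB1 in placing H3K9 trimethylation. Trim28, which recruits SETDB1, was at 60.1 and 64.7 against 52.1 and 56.8 CPM and was not called (-0.20, adjusted p = 0.11). Uhrf1, a reader of H3K9 methylation that acts in DNA replication, rose from 1 and 0 counts in WT to 13 and 17 counts (adjusted p = 0.0073), a ratio of 29.8 with a 95% counting interval of 4.96 to 1220. Its counts were higher in the same libraries as the dividing cell markers, and the part of cell content in this was not tested. Trim28, Fam208a and Mphosph8 were picked after their values were seen.

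Enzymes that make or use the cofactors are given next, against the 28% of all genes called in either direction. Of 17 genes of the S-adenosylmethionine cycle, 6 rose, 0 fell and 11 were not called (median 0.14). Bhmt, which remethylates homocysteine with betaine, went from 2430 and 1790 CPM to 8740 and 7840 CPM (log2 fold change 1.97, SE 0.14, edgeR adjusted p = 4.7e-05), and Gnmt, which uses up S-adenosylmethionine to methylate glycine, from 607 and 682 to 1560 and 1550 CPM (1.27, SE 0.09, adjusted p = 4.4e-05). Nnmt, which methylates nicotinamide, went from 45.8 and 31.5 to 140 and 120 CPM (1.75, SE 0.15, adjusted p = 0.00013), and Mat1a, the liver enzyme that makes S-adenosylmethionine, from 4090 and 3830 to 5830 and 6620 CPM (0.65, SE 0.10, adjusted p = 0.0016). The other 2 were Ahcy, which clears S-adenosylhomocysteine (0.54, adjusted p = 0.0019), and Bhmt2 (0.32, adjusted p = 0.015). Genes for making and for using the methyl donor were thus both among the 6 that rose.

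Of 18 genes around 2-oxoglutarate, 4 rose, 4 fell and 10 were not called (median 0.07). Got1, the cytosolic aspartate aminotransferase, stood apart, going from 76.2 and 72 CPM in WT to 365 and 581 CPM (log2 fold change 2.67, SE 0.18, edgeR adjusted p = 3.9e-05). The alanine aminotransferases Gpt2 (0.50, adjusted p = 0.0019) and Gpt (0.41, adjusted p = 0.0085) rose less, and Idh3a, a subunit of the mitochondrial isocitrate dehydrogenase that makes 2-oxoglutarate, fell from 43.4 and 42.3 to 33.9 and 29.1 CPM (-0.44, adjusted p = 0.0073). Among the other called genes, Fh1 rose (0.37, edgeR adjusted p = 0.017), and Idh1 (-0.40, adjusted p = 0.014) and Glud1 (-0.36, adjusted p = 0.022) fell. Ogdh, which consumes 2-oxoglutarate in the citric acid cycle, was at 263 and 272 against 291 and 270 CPM and was not called (0.07, adjusted p = 0.56), and was picked after its value was seen. These lists were put together with earlier results of these data known, so their counts are descriptions.

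**Figure D4:**
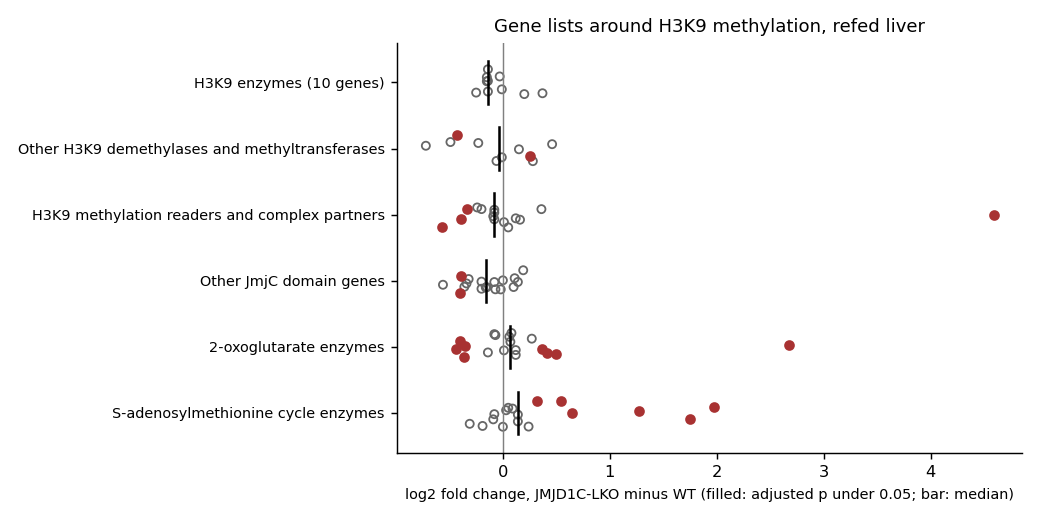
Log2 fold change (x axis, libraries labelled JMJD1C-LKO minus WT) of each gene of 6 lists, with filled points for an edgeR adjusted p under 0.05 and a bar at each list's median. The 10 H3K9 enzymes hold no filled point, 6 genes of the S-adenosylmethionine cycle are filled on the right, and the point at 4.59 is Uhrf1, whose fitted value rests on 1 count in WT.

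In H3K9me2 ChIP-seq, summits, the positions of highest enrichment in the regions that the authors called, lay within 1000 bp of a transcript start for nearly all of the 10 genes in 3 of the 4 WT livers. The first fasted liver had such a summit at 9 of the 10 genes (29.3% of 26180 annotated genes and 51.6% of the 13825 genes that were also tested in RNA-seq), and the second at all 10 (42.7% and 74.1%). The second refed liver had one at 8 of the 10 (35.1% and 61.6%). In these 3 livers, summits were more common among genes tested in RNA-seq than among all annotated genes. A summit is thus not read here as a sign of low transcription. The first refed liver stood apart, with 0 of the 10 and 0.233% of annotated genes (0.123% of those tested in RNA-seq), and its list held 1297 summits against 7690 to 13456 in the other 3. In both samples of a group, 9 of the 10 genes had a summit in fasted liver (29.1% of annotated genes) and 0 in refed liver (0.042%), a count that rests on the first refed liver, without which it was 8. With 2 samples against 2 an exact permutation test cannot go below p = 0.333, so no test was made, and the summit lists give no depth.

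Suv39h1 was the exception in fasted liver, with a summit in the second liver only, 17 bp before its start at 8074361 on chromosome X. Summits were ranked by score within each sample, so that a small percentage stands for a strong summit, and this one lay at 71.2% of its list. Kdm4b lacked a summit in the second refed liver, where the nearest lay 49571 bp from its start, although both fasted livers had one at 116 and 241 bp downstream. The other 8 genes had a summit in the same 3 livers. The summit nearest to a start was downstream in 77.8%, 60.0% and 87.5% of the genes of this set in the first fasted, second fasted and second refed liver and in 82.4%, 81.9% and 82.8% of all annotated genes with a summit. The share was lower in this set than in all genes in the second fasted liver and close to it in the other livers, and the difference was not tested.

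The strongest of these summits belonged to Ehmt1 and Ehmt2. At Ehmt1 (chromosome 2, 24790769 to 24919609, minus strand) the summits of 3 livers lay in the first intron within 78 bp of each other, 255 to 333 bp downstream of the start, and ranked in the top 11.8%, 10.9% and 24.6% of the lists of the first fasted, second fasted and second refed liver. The second fasted liver had a further, weaker Ehmt1 summit 312 bp upstream of the start, at 81.8% of its list. At Ehmt2 (chromosome 17, 34898474 to 34914073, plus strand) the ranks were the top 19.2%, 21.6% and 27.7%. Both fasted summits of Ehmt2 lay between its starts, 192 and 232 bp before the second start at 34898970, whereas the refed one lay 263 bp after it, in an exon. Kdm3b came next in both fasted livers, with ranks of 25.7%, 21.9% and 30.5%. The summits of Setdb1 in its first intron (chromosome 3, 95356923 to 95356972) were at 58.7%, 40.2% and 55.9%, and those of Kdm4a in its first intron (chromosome 4, 118179416 to 118179473) at 65.9%, 30.1% and 28.4%.

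Among the sites with a summit in 3 livers, that of Jmjd1c ranked lowest in both fasted livers. Its summits lay at its second start, at 67186203 to 67186224 in the first exon of NM_001242396 and 453 to 474 bp downstream of that start, and ranked at 99.7%, 64.3% and 85.9% of the lists, near the end in the first fasted liver. At the CG-rich first start a summit was found in the second fasted liver alone, at 67127229 (141 bp downstream, 78.2%). NM_001242396, which begins at the start with the shared summit, had lower estimated counts in the libraries labelled JMJD1C-LKO without passing the test. H3K9me2 was not analysed in that genotype, and a relation between mark and counts was not tested. Jmjd1c as a whole was at 2.61 CPM per kb in refed WT liver, with 75.4% and 59.7% of its counts given to NM_207221. In refed liver, the first start had no H3K9me2 summit and the second start had one in the second liver only.

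Accessible regions, as ATAC-seq summits within 1000 bp of a start, were found at fewer of the 10 genes. The first and second fasted WT livers had 3 and 2 of the 10 (12% and 5.49% of annotated genes, and 20.2% and 9.28% of those tested in RNA-seq). The refed WT livers had 4 and 2 of the 10 (9.94% and 6.24%, and 16.7% and 10.5%). The refed JMJD1C-LKO livers had 1 and 0 of the 10 (4.06% and 0.886%, and 6.66% and 1.31%). Fewer summits in the JMJD1C-LKO livers were thus a feature of all genes, since their lists held 1450 and 825 summits against 3119 to 7632 in the WT livers. In both samples of a group there were 2 of the 10 in fasted WT (4.36% of annotated genes), 2 in refed WT (4.78%) and 0 in refed JMJD1C-LKO liver (0.397%).

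Every ATAC-seq summit at these genes belonged to Kdm3a or a KDM4 gene, and none to Jmjd1c, Kdm3b, Ehmt1, Ehmt2, Setdb1 or Suv39h1. The nearest ATAC-seq summit to a Jmjd1c start was 99655 bp away, in the second refed WT liver. Kdm4a was the only gene of the set with a summit in all 4 WT livers and in a JMJD1C-LKO liver. In 4 of these 5 samples it lay at 118179843 to 118179895, 148 to 200 bp downstream of the start at 118180043, and it ranked in the top 8.70% of the first fasted list, at 18.2% and 31.4% in the refed WT livers and at 34.8% in the first JMJD1C-LKO liver. In the second fasted liver the summit was 106 bp upstream and weak (71.0%). The second JMJD1C-LKO liver had none within 367911 bp.

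Kdm4b (chromosome 17, 56326050 to 56403774, plus strand) had ATAC-seq summits in both refed WT livers and in no other sample. They lay 13 bp apart, 329 and 342 bp upstream of the start, at 22.1% and 32.2% of the lists, while the nearest summits of the fasted WT livers were 136259 and 142229 bp away and those of the refed JMJD1C-LKO livers 246880 and 433813 bp. H3K9me2 showed the opposite order at this gene, with summits in both fasted livers and in neither refed liver. As 1 gene with 2 samples per group, this order is a description, and the first refed H3K9me2 list had almost no gene at all.

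**Figure D5:**
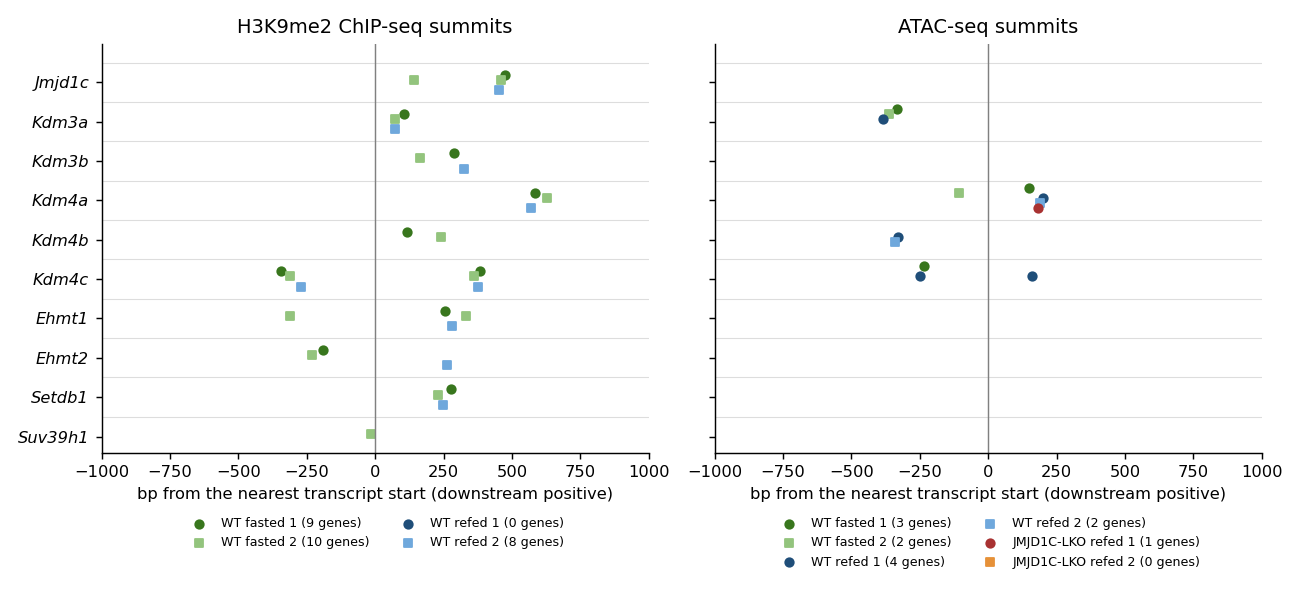
Distance of each summit from the nearest transcript start (x axis, bp, downstream positive) for H3K9me2 ChIP-seq (left, 4 WT livers) and ATAC-seq (right, 6 livers), 1 point per summit and sample. H3K9me2 points lie mostly 72 to 627 bp downstream in the fasted livers and the second refed liver, the first refed liver has none, and ATAC-seq points are limited to Kdm3a, Kdm4a, Kdm4b and Kdm4c.

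Kdm3a had an ATAC-seq summit in both fasted livers and in the first refed WT liver, upstream of all its starts. The summits lay at 71633249 to 71633302 on chromosome 6, 332 to 385 bp before the start at 71632917 (minus strand), and ranked at 8.81% and 36.5% in fasted and at 48.0% in refed liver. The bases within 100 bp of the strongest summit are shown, read from GRCm38.p6 on the strand of the gene, with every CG in capitals.
Kdm3a, chr6:71633149-71633349, minus strand: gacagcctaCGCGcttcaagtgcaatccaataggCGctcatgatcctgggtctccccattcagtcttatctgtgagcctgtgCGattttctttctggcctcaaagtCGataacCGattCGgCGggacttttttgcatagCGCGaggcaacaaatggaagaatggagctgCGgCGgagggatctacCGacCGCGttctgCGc
This stretch holds 16 CG in 201 bases with 54.2% G and C. H3K9me2 summits of 3 livers lay on the other side of the starts, at 71632581 to 71632614.

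The promoters were searched for the E-box CACGTG, a sequence that the transcription factor USF-1 is known to bind. The sequence reads the same on both strands and no matches overlapped. Of the 10 genes, 8 had an entry in the RefSeq promoter table (GRCm38.p6, 250 bases before to 50 after a start), with 14 starts between them (all but Kdm3b and Kdm4b). The motif was present at 3 of the 14 starts, belonging to Kdm4c and Ehmt2, and at 7.15% of 32851 promoters. Kdm4c had it at positions -85 and -53 from its start at 74251879 and Ehmt2 at -232 and -26 from its first start at 34898474 and once at -236 from its second start, and 0.594% of all promoters hold it more than once. The motif contains a CG, and these promoters are rich in CG, at the 87.1th percentile for Kdm4c and the 87.1th and 96.5th for Ehmt2. The shares of all promoters are not matched for CG, so an excess of the motif was not tested. Both promoters with a pair are shown up to the base before the start, with the motif in capitals.
Kdm4c, chr4:74251629-74251878, plus strand: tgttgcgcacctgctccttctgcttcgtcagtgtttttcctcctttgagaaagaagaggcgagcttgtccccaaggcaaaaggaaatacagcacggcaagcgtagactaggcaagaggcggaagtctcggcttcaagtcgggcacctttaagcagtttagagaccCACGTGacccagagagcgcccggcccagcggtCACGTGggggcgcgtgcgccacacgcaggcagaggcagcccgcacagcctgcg
Ehmt2, chr17:34898224-34898473, plus strand: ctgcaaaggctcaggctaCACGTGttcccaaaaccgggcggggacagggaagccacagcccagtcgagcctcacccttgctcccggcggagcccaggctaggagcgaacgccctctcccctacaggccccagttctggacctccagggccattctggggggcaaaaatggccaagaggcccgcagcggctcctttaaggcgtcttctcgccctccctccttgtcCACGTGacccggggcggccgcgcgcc
A match is a sequence feature and not a measured site. At Kdm4c the shown stretch contains ATAC-seq summits of the first fasted and the first refed WT liver, at 74251643 and 74251630. Both lay at its upstream edge, away from the motif pair, and ranked at 55.5% and 59.9% of their lists. A stronger summit of the first refed WT liver (18.4%) lay outside the stretch, 162 bp downstream of the start. Ehmt2 had H3K9me2 summits but no ATAC-seq summit within 1000 bp of a start in any sample. In the fasted livers and the second refed liver, H3K9me2 summits flanked the Kdm4c start on both sides, at 74251534 to 74251607 and at 74252241 to 74252264.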

How the data were processed

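Mouse liver samples were grouped by the titles and genotypes in the labels, with F read as fasted and R as refed from the reporting summary and the peak names in the files. RNA-seq values are estimated counts for RefSeq transcripts, deposited without normalization. HISAT2, Partek and DESeq2 3.5 are among the tools in the submitters' processing notes, and the counting method is not given in the sources used here. A second deposited table holds the authors' own p-value, step-up FDR and fold change per transcript and was not used. For ATAC-seq and H3K9me2 ChIP-seq, the authors deposited MACS2 2.1.1 summits called in each sample at a q-value of 0.05 (mm10), scored by −log10 q-value, with at least 2.0-fold enrichment for ATAC-seq and 2.5-fold over the matched input for ChIP-seq. ATAC-seq reads had been aligned with BWA, and ChIP-seq reads with Bowtie2 according to the methods.

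Counts were summed per gene, rounded and tested across all genes with edgeR 4.0.16 (filterByExpr, TMM, quasi-likelihood F test, Benjamini-Hochberg adjustment, threshold 0.05) in R 4.3.3, and likewise per transcript. Libraries held 51265128 to 54400509 counts. The reporting summary calls the 2 samples of a group biological replicates, and each RNA sample was a pool. Transcript lengths and starts, which differ from the starts in the count table for some transcripts, came from RefSeq GRCm38.p6, which matched 24682 of 24994 transcripts. Summits within 1000 bp of a start were counted and ranked within each sample. Both fits were tested on simulated data.

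The members and gene lists were chosen with earlier results of these data known. Named are all members and their transcripts, up to 4 genes per other list past the threshold with the smallest p, and the 5 genes nearest to Jmjd1c. Alternatives were DESeq2 1.42.0, its size factors, no count filter, a replicate block, each library left out, summit windows of 500 and 2500 bp, a score of at least 5, equal numbers of summits and a summit in either sample.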

Additional observations from a re-analysis of the deposited data

How the results depend on the processing

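Over 80 alternative values for the 10 genes, 74 kept their direction and side of the threshold, 3 passed it and 3 changed sign, and over 192 for the 24 transcripts 182 kept both and 10 changed sign. Every change came from leaving out a library, and all 136 values under DESeq2 size factors, no count filter, DESeq2's Wald test or the replicate block kept both. Leaving out each library in turn gave log2 fold changes of -0.07 to 0.05 for Ehmt1 and -0.12 to 0.05 for Kdm4b and its transcript NM_172132. For transcripts the ranges were -0.69 to 0.18 for NM_001109686, -1.25 to 0.00 for NM_001109687 and -0.00 to 0.78 for NM_172545 of Ehmt1, -0.05 to 0.24 for NM_207221 of Jmjd1c, -0.07 to 0.45 for NM_001172095 and -0.60 to 0.37 for NM_001356561 of Kdm4c, and -0.20 to 0.04 for NM_001163642 of Setdb1. Leaving out a library gave 0 to 2 of the 10 genes higher (Ehmt2 and Suv39h1, without the first JMJD1C-LKO library) and 0 to 1 lower (Setdb1, without the second). Over all genes these fits called 660 to 2590 higher and 408 to 2590 lower, with 789 and 476 without the first and 660 and 408 without the second WT library. Over all transcripts they called 0 to 32 higher and 0 to 8 lower, and fewer libraries leave less information on the spread. A group left with 1 library was assumed to vary like the other.

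DESeq2's Wald test called 1309 transcripts higher and 1182 lower, and the cause was not tested. The replicate block called 107 transcripts higher and 40 lower, and 2211 genes higher and 1996 lower, beside 2066 and 1892 without it. The libraries share only a number, with a correlation of -0.01 between the deviations of same-numbered libraries (2 pairs). For summits in both samples of a group, a score of at least 5 gave 0 of the 10 genes in fasted ATAC-seq, and equal numbers of strongest summits (1297 for H3K9me2 and 825 for ATAC-seq) gave 0 in fasted H3K9me2 and 0 in fasted and refed WT ATAC-seq, since fewer summits were used. A summit in either sample gave 8 in refed H3K9me2, 4 in refed WT and 1 in refed JMJD1C-LKO ATAC-seq. Leaving out a sample gave 9 to 10 in fasted and 0 to 8 in refed H3K9me2, and 2 to 3 in fasted WT, 2 to 4 in refed WT and 0 to 1 in refed JMJD1C-LKO ATAC-seq. Windows of 500 and 2500 bp kept all counts within 1.5 times. The summit lists hold no depth, so a missing summit does not show a missing mark.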
